A study of Mus musculus with 6 samples.

Results

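Immediate early genes are transcribed within minutes of a stimulus from promoters that need no new protein, and most of them encode transcription factors that pass the signal on to later genes. JUN, FOS and ATF proteins pair through leucine zippers into the AP-1 factors, EGR1 is a zinc finger factor induced downstream of ERK and the serum response factor SRF, and MYC pairs with MAX to drive genes of growth and ribosome production. In the exocrine pancreas these factors are known for their induction when acinar cells are dissociated, injured by caerulein or converted toward duct-like cells.

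The genes described here were chosen by name, though with earlier results of these data known. They were Egr1, Fos, Fosb, Fosl2, Jun, Junb, Jund, Atf3, Ier2 and Myc. Of these 10 genes, 8 had values among the 10245 genes of the whole-pancreas RNA-seq data, while Fos and Fosb were not analysed here. Controls were 3 mice of genotype Ptf1a(CreER/+), in which the tamoxifen-activated recombinase replaces 1 copy of Ptf1a, so the controls themselves carried a single working copy. Ptf1a cKO mice were 3 animals of genotype Ptf1a(CreER/fl), in which the remaining copy is deleted upon recombination. All 6 mice received tamoxifen by gavage at 0.25 mg per g on 3 days, and the pancreas was taken on day 14. The recombinase is made from the Ptf1a locus, which is active in acinar cells, whereas RNA came from the whole gland, including acinar cells that had not recombined. By the methods of the study, mice with this inducible recombinase also carry the R26R-EYFP reporter in both groups. Controls were 4 months old (1 male, 2 females) and Ptf1a cKO mice 5 months old (1 male, 2 females), so age and genotype cannot be told apart.

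Values are normalized read counts as scaled across libraries by the authors. Ptf1a fell from 606.2 ± 42.9 (SD, n = 3) to 33.4 ± 32.1 normalized counts, and the Ptf1a cKO libraries held 19.8, 70.1 and 10.2. Acinar digestive enzyme transcripts, the defining markers of the tissue, were present in every library, and 15 of 19 fell, beside 16.8% of all genes. Summed normalized counts over all genes were 1.79e+07 to 2.12e+07 in controls and 5.53e+06 to 8.98e+06 in Ptf1a cKO libraries, while the median gene stood at 125.0 to 128.5 in all 6. In a whole gland, a change in the number of cells of a type and a change in the RNA per cell cannot be told apart. The mouse identifiers in the labels differ for all 6 libraries, and the p-values measure the spread between these mice. The prefixes of these identifiers follow genotype, so whatever they mark cannot be told apart from genotype either.

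Loss of Ptf1a was accompanied by a split within the 8 genes. Egr1, Jun, Fosl2 and Atf3 rose, Ier2 and Myc fell, and Junb and Jund did not pass the threshold of an adjusted p under 0.05 by limma with Benjamini-Hochberg adjustment over all genes. Thus 6 of 8 passed, beside 33.9% of all genes tested, with 4 higher beside 17.1% and 2 lower beside 16.8%. The 3 control values and the 3 Ptf1a cKO values did not overlap for 7 of 8 genes, beside 50.8% of all genes. The 8 genes had a median log2 fold change of 0.91, against 0.04 over the 10245 genes. When libraries were instead set to an equal total, the median gene stood at 1.48, 98.7% of calls over all genes were higher (50.4% as deposited), and 7 of the 8 genes passed as higher and 0 as lower. Egr1, Jun, Fosl2 and Atf3 were higher and passed under each of the 4 other scalings tried.

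**Figure D1:**
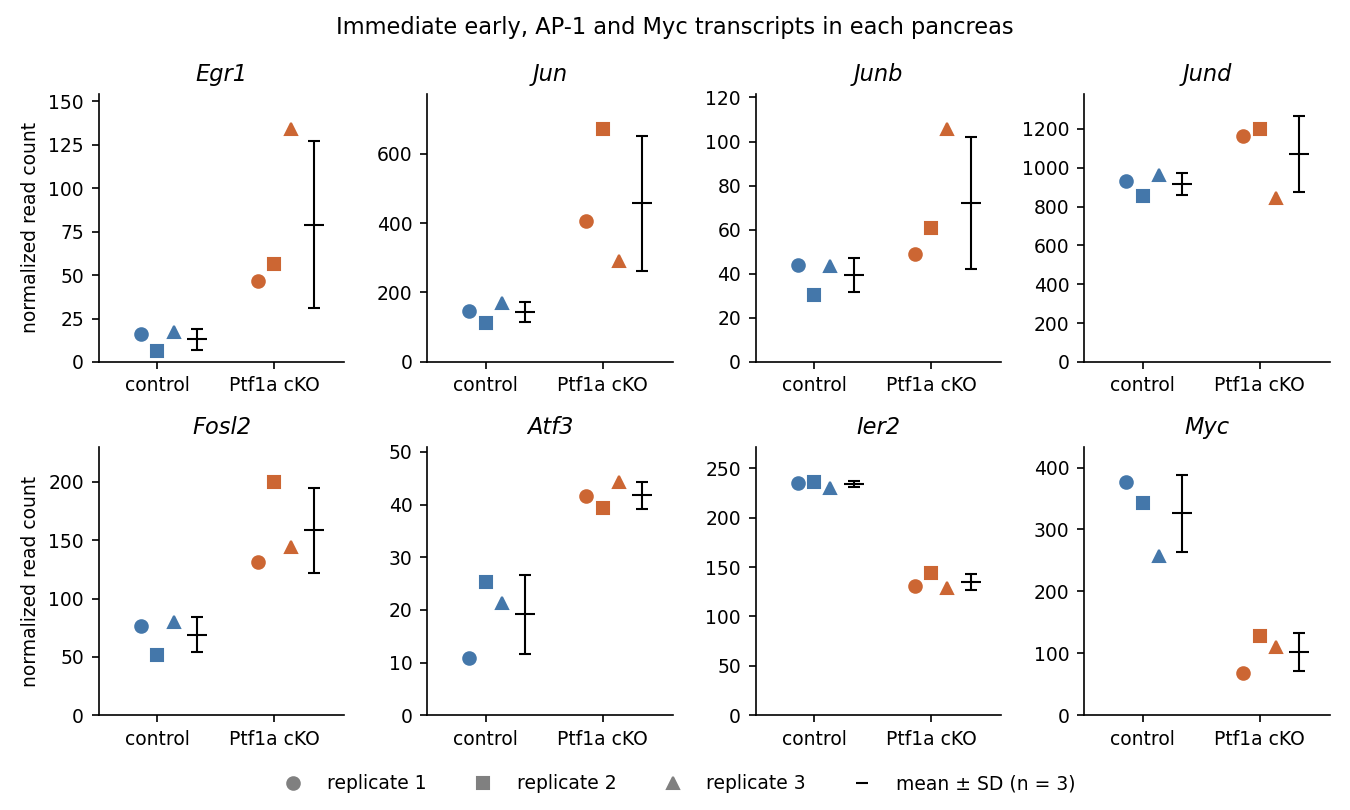
Normalized read count (linear axis from 0, a separate scale for each gene) of the 8 genes in the 3 control (blue) and 3 Ptf1a cKO (orange) pancreata, with the mean and SD of each group in black. The groups overlap only for Jund; Egr1 and Junb are highest in Ptf1a cKO 3, and Jun and Fosl2 in Ptf1a cKO 2.

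Egr1 showed the largest change of the 8 genes with all libraries in the fit. Its normalized counts were 16.0, 6.14 and 17.1 in the controls and 46.7, 56.2 and 134.4 in the Ptf1a cKO libraries. The lowest Ptf1a cKO library thus lay well above the highest control, and Ptf1a cKO 3 stood apart from the other two. The group means were 13.1 ± 6.03 and 79.1 ± 48.2 (SD, n = 3), a ratio of 6.05. The log2 fold change was 2.25 (SE 0.43, 95% interval 1.27 to 3.23, limma adjusted p = 0.00439), the 101st largest rise of the 10245 genes. When each library was left out in turn, the estimate ranged from 1.81 to 2.54 and passed the threshold in 6 of 6 fits. Without Ptf1a cKO 3 it was 1.81, below Jun at 1.86. With all libraries it was 1.70 at a pseudocount of 1 and 2.50 at 0.05. The exact two-sided permutation test gave p = 0.1, which is the smallest value that 3 against 3 libraries allow, and the same holds for every gene below whose groups did not overlap.

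Jun encodes the archetypal partner of AP-1 and rose in all 3 Ptf1a cKO libraries. Controls held 145.8, 113.3 and 170.1 normalized counts, and Ptf1a cKO libraries held 406.0, 672.3 and 291.4. The order of the mutant libraries differed from that of Egr1, since Ptf1a cKO 3 was the lowest for Jun and the highest for Egr1. The means were 143.1 ± 28.5 and 456.6 ± 195, with a log2 fold change of 1.58 (SE 0.27, 95% interval 0.97 to 2.20, limma adjusted p = 0.00265). Leaving out single libraries gave 1.26 to 1.86, past the threshold in 6 of 6 fits.

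Junb encodes a JUN protein that is usually a weaker activator than c-Jun. It stood at 43.8, 30.6 and 43.7 normalized counts in controls and 49.1, 60.9 and 105.9 in Ptf1a cKO libraries. The groups did not overlap, but Ptf1a cKO 1 lay close to the controls. The log2 fold change of 0.76 (SE 0.28, 95% interval 0.14 to 1.39) missed the threshold (limma adjusted p = 0.0600), and it passed in 1 of 6 fits with a library left out. It was 0.99 without Ptf1a cKO 1 (limma adjusted p = 0.0336) and 0.46 without Ptf1a cKO 3 (limma adjusted p = 0.186). At an equal total per library it passed, at 2.15, or 0.67 above the median gene.

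Jund, the JUN gene that is expressed broadly in resting tissue, was the only 1 of the 8 whose groups overlapped. Controls held 933.2, 852.3 and 963.7 normalized counts and Ptf1a cKO libraries 1164.8, 1202.5 and 844.7. Ptf1a cKO 3 was below all 3 controls, and the other two mutant libraries were above them. The log2 fold change was 0.21 (SE 0.15, 95% interval -0.13 to 0.55, limma adjusted p = 0.314, exact permutation p = 0.4), and the interval leaves room for a rise of up to its upper bound. At an equal total per library Jund passed, at 1.70, or 0.22 above the median gene.

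Levels of different genes were compared per kb of annotated exon. On this scale Jund was the most abundant of the 8 genes in both groups, at 549 ± 34.5 normalized counts per kb in controls and 642 ± 118 in Ptf1a cKO mice. In controls it was followed by Ier2 (154 ± 2.11), Myc (120 ± 22.7), Jun (44.9 ± 8.94), Junb (17.1 ± 3.31), Atf3 (8.88 ± 3.48), Fosl2 (7.14 ± 1.57) and Egr1 (2.92 ± 1.34). The SD ranges of Atf3 and Fosl2 overlapped there, and their order is not resolved. In Ptf1a cKO mice Jun (143 ± 61.3) had the second highest mean, though its SD range overlapped that of Ier2 (88.6 ± 5.39). Within each Ptf1a cKO library Jun was the higher (127.3, 210.8 and 91.4 against 86.2, 94.7 and 84.8), narrowly so in Ptf1a cKO 3. Myc (37.5 ± 11.3), Junb (31.3 ± 13.0), Atf3 (19.4 ± 1.17), Egr1 (17.6 ± 10.7) and Fosl2 (16.4 ± 3.78) followed. The SD range of each overlapped that of the next, so their full order is not resolved, though Junb lay above Atf3 in each library.

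The makeup of the JUN family moved from Jund toward Jun. Per kb, Jun made up 7.32%, 6.35% and 8.21% of the summed JUN family level in controls and 15.0%, 22.0% and 14.2% in Ptf1a cKO libraries. Jund made up 89.6%, 91.3% and 88.9% in controls and 82.4%, 75.2% and 78.7% in Ptf1a cKO libraries. Neither share overlapped between groups (exact two-sided permutation p = 0.1 for each), and neither depends on how the libraries were scaled. The Junb share was 2.37% to 3.05% in controls and 2.52%, 2.76% and 7.15% in Ptf1a cKO libraries, where only Ptf1a cKO 3 lay outside the control range (permutation p = 0.8). Each of Jun, Junb and Jund overlaps an annotated gene on the opposite strand (Junos, Prdx2 and Gm11175). Whether reads were counted by strand is not given in the sources used here. Reads over an overlap may have been left out as ambiguous, or counted for the wrong gene, such as the broadly expressed Prdx2 for Junb. The levels per kb and the shares of these genes carry this uncertainty.

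**Figure D2:**
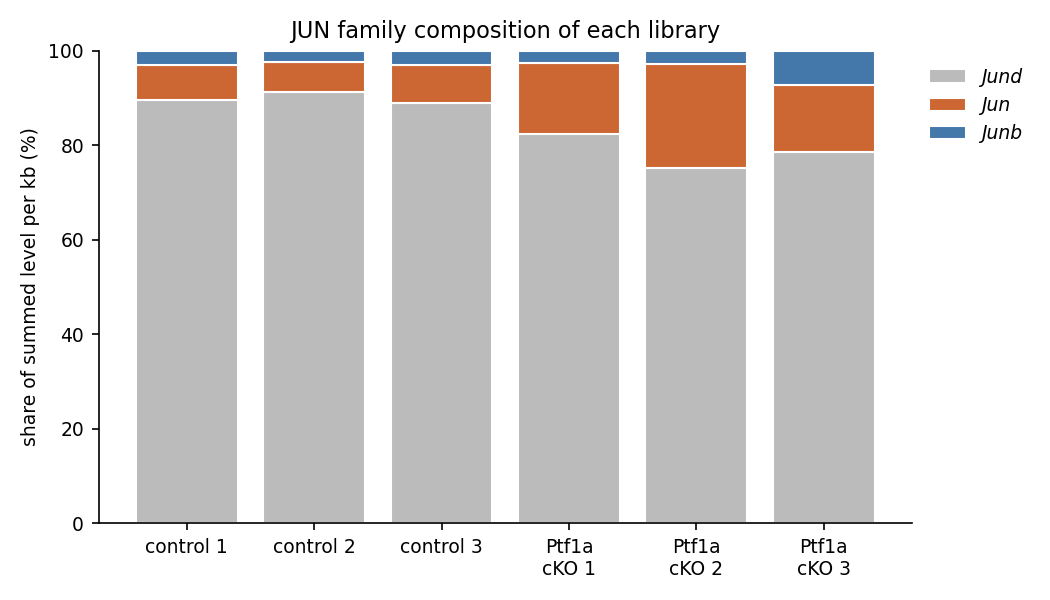
Share of the summed JUN family level (normalized counts per kb, in percent) taken by Jund, Jun and Junb in each of the 6 libraries, 1 stacked bar per library. The Jun share lies between 6.35% and 8.21% in controls and between 14.2% and 22.0% in Ptf1a cKO pancreata, and the Jund share is lower in every Ptf1a cKO library than in any control.

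Fosl2, which encodes the FOS family protein FRA-2, rose. Its normalized counts were 76.2, 51.6 and 79.5 in controls and 131.4, 200.2 and 144.1 in Ptf1a cKO libraries, and as for Jun the highest value was in Ptf1a cKO 2. The groups were clearly apart, at means of 69.1 ± 15.2 and 158.5 ± 36.6. The log2 fold change was 1.16 (SE 0.21, 95% interval 0.70 to 1.62, limma adjusted p = 0.00297) and stayed past the threshold in 6 of 6 fits with a library left out (0.97 to 1.28).

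Atf3 encodes a stress-induced ATF protein that pairs with JUN proteins and often represses. Controls held 10.8, 25.3 and 21.3 normalized counts and Ptf1a cKO libraries 41.6, 39.3 and 44.3. The 3 mutant values were nearly equal, while control 1 lay below the other controls. The log2 fold change was 1.06 (SE 0.31, 95% interval 0.37 to 1.75, limma adjusted p = 0.0259). Without control 1 it was 0.76 (limma adjusted p = 0.0617). Without Ptf1a cKO 1 or Ptf1a cKO 3 it kept its size, at 1.06 and 1.02, but missed the threshold (limma adjusted p = 0.0708 and 0.0666), where the calls over all genes also fell, from 3475 to 2652 and 2431. Atf3 also overlaps an annotated gene, Gm24748, on the opposite strand.

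The 3 AP-1 genes that rose are shown with the 300 bases around their RefSeq transcription start (250 before and 50 after, assembly GRCm38.p6). Capitals mark matches to the motifs searched on both strands.
Jun, chr4:95052173-95052472, minus strand: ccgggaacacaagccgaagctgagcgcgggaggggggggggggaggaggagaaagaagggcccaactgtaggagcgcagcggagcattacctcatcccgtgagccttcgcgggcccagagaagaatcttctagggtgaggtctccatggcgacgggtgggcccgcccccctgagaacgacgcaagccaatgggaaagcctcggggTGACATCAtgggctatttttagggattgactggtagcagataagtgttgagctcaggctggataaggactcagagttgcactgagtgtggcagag
Fosl2, chr5:32136222-32136521, plus strand: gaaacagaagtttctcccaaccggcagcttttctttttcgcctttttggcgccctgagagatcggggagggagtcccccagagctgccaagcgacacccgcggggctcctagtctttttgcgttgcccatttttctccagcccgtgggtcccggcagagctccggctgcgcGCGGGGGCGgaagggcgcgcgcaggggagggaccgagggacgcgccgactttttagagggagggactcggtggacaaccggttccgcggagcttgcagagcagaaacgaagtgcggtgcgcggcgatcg
Atf3, chr1:191183284-191183583, minus strand: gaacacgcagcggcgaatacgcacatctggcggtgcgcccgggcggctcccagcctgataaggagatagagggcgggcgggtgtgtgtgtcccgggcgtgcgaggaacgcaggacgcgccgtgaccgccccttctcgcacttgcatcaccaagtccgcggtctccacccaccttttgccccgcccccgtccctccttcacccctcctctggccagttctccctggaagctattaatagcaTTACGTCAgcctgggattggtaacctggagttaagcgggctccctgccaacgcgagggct
The Jun window held TGACATCA at position -45 from the start, the variant AP-1 site that is known from the Jun promoter and that 3.62% of 32851 windows held. The Fosl2 window held the EGR site GCGGGGGCG at -79, and 3.47% of windows held this or GCGTGGGCG. The Atf3 window held TTACGTCA at -10, which 0.50% of windows held. It differs from the CRE at 1 base, as TGACATCA in the Jun window does. TGACATCA and TTACGTCA were added to the search after these windows had been read, so their presence is a description. None of the 3 windows held the CRE TGACGTCA (1.79% of windows), the AP-1 site TGANTCA (7.81%), the E-box CACGTG (7.15%), TATAAA (13.6%) or a CArG box (1.63%), the element bound by SRF. The Jund window held no match to any motif, and TATAAA began at the start site itself in Junb. Windows were given for 7 of the 10 genes, and not for Egr1, Ier2 and Myc. None of the strings searched was held by all 3 windows. A search for a few exact strings cannot show whether the 3 genes share an element.

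Ier2, an immediate early gene for a small nuclear protein that is often induced together with Fos and Egr1, moved the other way. Its normalized counts were 235.1, 236.3 and 230.2 in controls and 131.2, 144.2 and 129.0 in Ptf1a cKO libraries. Both groups were tight and far apart, at 233.9 ± 3.20 and 134.8 ± 8.20. The log2 fold change was -0.78 (SE 0.11, 95% interval -1.02 to -0.54, limma adjusted p = 8.84e-04), and it stayed between -0.83 and -0.75 when a library was left out. With libraries set to an equal total the sign turned, to 0.69 (limma adjusted p = 0.0106), at a median gene of 1.48. Relative to the median gene, Ier2 was lower by a log2 value of -0.82 as deposited and -0.79 at the same total.

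Myc fell the most of the 8 genes. Controls held 377.1, 343.3 and 257.6 normalized counts and Ptf1a cKO libraries 67.9, 127.8 and 110.3. The highest mutant library was far below the lowest control. The means were 326.0 ± 61.6 and 102.0 ± 30.8, a 3.20-fold difference, with a log2 fold change of -1.67 (SE 0.23, 95% interval -2.19 to -1.15, limma adjusted p = 9.07e-04). It passed the threshold in 6 of 6 fits with a library left out (-1.85 to -1.41). At the same total per library it was -0.21 and did not pass (limma adjusted p = 0.450), but relative to the median gene it was -1.71 as deposited and -1.68 at the same total.

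**Figure D3:**
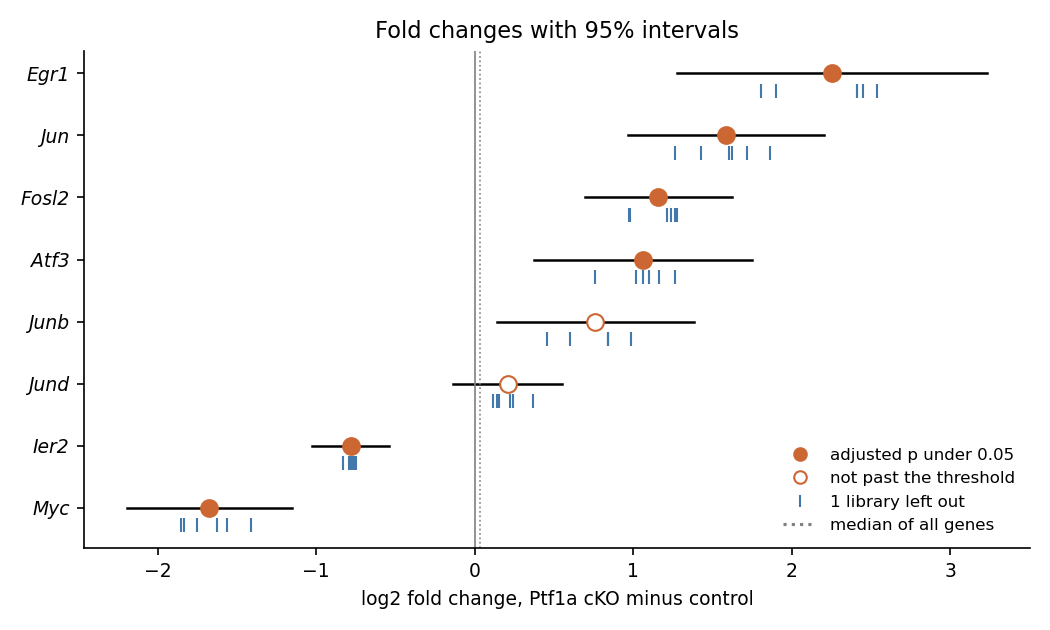
Log2 fold change (Ptf1a cKO minus control) of the 8 genes as points with 95% intervals from limma, filled where the adjusted p was under 0.05, with the 6 estimates that leave out 1 library each as blue ticks. Egr1, at 2.25, and Myc, at -1.67, lie at the ends, and only the interval of Jund crosses 0.

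Ratios between 2 genes of a library depend on the scaling of libraries only through the pseudocount added before the log, which weighs most on low genes. Relative to Jund, the log2 ratio of Egr1 was higher in Ptf1a cKO libraries by 2.05, that of Jun by 1.38, that of Fosl2 by 0.95 and that of Atf3 by 0.85, whereas Ier2 differed by -0.99 and Myc by -1.88. For each of these the 3 values of 1 group lay outside those of the other (exact two-sided permutation p = 0.1, the smallest possible). The Junb ratio differed by 0.55, with groups that overlapped (permutation p = 0.4), and by 0.089 without Ptf1a cKO 3. The ratio of Myc to Max, its obligate partner, was 0.75, 0.58 and -0.05 in controls and -1.17, -0.56 and -0.37 in Ptf1a cKO libraries, lower in all 3 by -1.13 on average (permutation p = 0.1).

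Expression of further genes of these pathways was mixed. Of 46 other immediate early genes 37 had values, of which 9 rose (17.1% of all genes did), 6 fell (16.8% of all genes) and 22 did not pass, shares near those of all genes. Their median log2 fold change was 0.22. The directions in this and the lists below hold for the deposited scaling. Counts in the lists below are to be read beside the same shares of all genes. At an equal total 33 of the 37 passed as higher and 1 as lower, with a list median 0.18 above the median gene as deposited and 0.21 above it at the equal total. Nr4a2, an orphan nuclear receptor, rose from 77.9 to 89.5 normalized counts in controls to 284.4 to 461.5 (log2 fold change 2.07, SE 0.17, limma adjusted p = 9.09e-05). Errfi1, a feedback inhibitor of the EGF receptor, rose by 1.44. Plk2, a polo-like kinase, fell from 2208 to 2647 normalized counts in controls to 205.2 to 552.0 in Ptf1a cKO libraries, a log2 fold change of -2.93 (limma adjusted p = 2.27e-04).

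Of 13 other AP-1 partners 7 had values. Maf (0.58), which encodes a large MAF factor, rose, while Atf4 (-1.04), the effector of the integrated stress response, and Mafk (-0.60), a small MAF factor without an activation domain, fell. Among EGR factors and their NAB corepressors 2 of 5 genes had values. Nab1 held 474.9 to 499.3 normalized counts in controls and 221.0 to 249.6 in Ptf1a cKO libraries, a log2 fold change of -1.02 (limma adjusted p = 2.39e-04), whereas Nab2, itself an EGR1 target, was at 0.53 and did not pass (limma adjusted p = 0.150). Nab1, which encodes a corepressor of EGR1, thus fell where Egr1 rose.

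Upstream, 7 of 7 genes for SRF, its coactivators and ETS partners and CREB1 had values, and 3 rose while Srf fell. Mkl2, a coactivator of SRF, was at 0.65, Elk3 at 0.48, Mkl1 at 0.52 and Srf at -0.43. Of 8 JNK and p38 pathway kinases with values, Mapk13 (p38 delta) rose by 0.93 and Mapk9 (JNK2) was at -0.48, while 6 did not pass. Of 6 textbook AP-1 targets with values out of 15, Spp1 (osteopontin) and Cd44 rose and Ccnd1 (cyclin D1) fell. Spp1 held 1327 to 1959 normalized counts in controls and 87512, 20971 and 105340 in Ptf1a cKO libraries, a log2 fold change of 5.14 (limma adjusted p = 2.27e-04), with Cd44 at 0.93 and Ccnd1 at -1.17. Ptf1a cKO 2, in which Jun and Fosl2 were highest, had the lowest Spp1 of the mutant libraries.

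In the MYC and MAX network 11 of 13 genes had values. Of these, 0 rose (17.1% of all genes did) and 2 fell, near the 16.8% of all genes that fell. The 2 were Mlx (-0.77), a partner of the glucose sensor ChREBP, and Max (-0.55). Of 19 textbook MYC targets 18 had values, and 10 fell (16.8% of all genes did), 0 rose (17.1% of all genes) and 8 did not pass, with a median log2 fold change of -0.57. Odc1, the rate-limiting enzyme of polyamine synthesis, held 351.0, 369.1 and 413.7 normalized counts in controls and 95.2, 138.6 and 64.2 in Ptf1a cKO libraries, a log2 fold change of -1.95 (limma adjusted p = 4.54e-04). Nme1, a nucleoside diphosphate kinase, was at -0.88 and the nucleolar helicase gene Ddx21 at -0.82. At an equal total none of the targets fell and 15 passed as higher, but the median of the list relative to the median gene was -0.61 as deposited and -0.58 at the same total. The list was chosen with earlier results of these data known, and its count is given as a description. Of 8 heat shock genes with values, Hspa8 (0.80), Hsph1 (0.59) and Hsp90aa1 (0.51) rose and Hspb1 (-1.09) and Hspd1 (-0.52) fell.

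**Figure D4:**
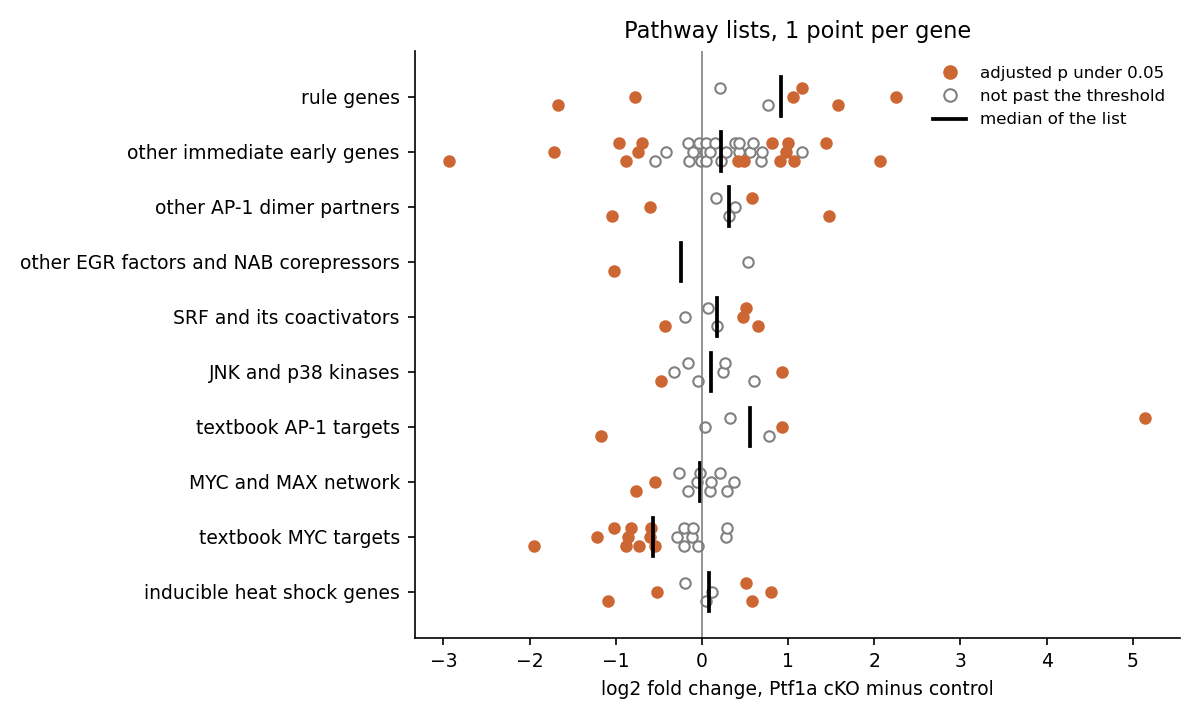
Log2 fold change (Ptf1a cKO minus control) of each gene with values in the 8 genes of the rule and in 9 pathway lists, 1 point per gene, filled where the limma adjusted p was under 0.05, with the list median as a bar. The medians lie between -0.24 and 0.31 except for the genes of the rule (0.91), the AP-1 targets (0.55) and the MYC targets (-0.57).

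Markers of some other cell types also differed between the groups. Over all genes 17.1% rose and 16.8% fell. Leukocyte markers (6 of 7 with values rose) summed to 724.1 to 1310 normalized counts in controls and to 3934, 1640 and 4510 in Ptf1a cKO libraries. Ptf1a cKO 3, in which Egr1 and Junb were highest, also had the highest sum. Ptprc, which did not pass (limma adjusted p = 0.0772), was highest there (418.6 against 86.6 and 57.0). Cd68, Lyz2, Csf1r and Itgam were highest there too. Emr1 (161.3, 74.4 and 106.4) and Cd74 (2491, 529.8 and 2241) were instead highest in Ptf1a cKO 1. In that library Egr1 and Junb were the lowest of the mutant libraries. Fibroblast and stellate markers (7 of 8 rose) summed to 2807 to 3118 in controls and to 5388, 9915 and 6929 in Ptf1a cKO libraries. Ptf1a cKO 2, in which Jun and Fosl2 were highest, had the highest sum. Every gene of that list with values but Acta2 (164.0, 73.2 and 168.1) was highest in Ptf1a cKO 2. Among mutant libraries it also held the most Ptf1a and the highest digestive enzyme sum (5.26e+06 against 3.12e+06 and 1.85e+06). Of the ductal markers 3 of 6 rose, with sums of 2426 to 2705 and 4321 to 4813. Adipocyte markers (1 of 4 rose) summed to 167.2 to 404.9 and 313.6 to 1159, endothelial markers (1 of 7 rose) to 880.4 to 1107 and 896.6 to 1111, and none of 7 endocrine markers passed. The adipocyte and endothelial counts were near the share of all genes that rose. No marker with values was at 0 in any library. The part of these cells in the changes of Egr1, Jun, Fosl2 and Myc was not tested.

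Genes whose pattern over the 6 libraries was most like that of a member were found by the root mean square difference of their centred log2 values. Nearest to Egr1 were Glul (0.25), Cfb (0.29), Tenm4 (0.32), Ucp2 (0.38) and Cilp (0.38), which encode glutamine synthetase, complement factor B, a teneurin, a mitochondrial carrier and a cartilage matrix protein. Glul held 146.8, 79.9 and 174.9 normalized counts in controls and 517.2, 708.8 and 987.7 in Ptf1a cKO libraries, and like Egr1 it was lowest in control 2 and highest in Ptf1a cKO 3. Nearest to Jun were Sord (0.25), Cyp4v3 (0.26) and Serpina10 (0.26). Nearest to Myc were Pde2a (0.10), Ptprj (0.14) and Tfrc (0.16), the last of which encodes the transferrin receptor. Pde2a, a cyclic nucleotide phosphodiesterase, held 635.4, 588.9 and 459.9 normalized counts in controls and 132.9, 198.1 and 200.6 in Ptf1a cKO libraries. These distances carry no test.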

How the data were processed

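Whole pancreata of 3 control and 3 Ptf1a cKO mice were profiled by single-end RNA-seq. The deposited values are a signal, namely normalized read counts per gene symbol scaled by the authors to make the 6 libraries comparable. The submitters' processing notes name TopHat2 2.0.4, Bowtie 0.12.7.0, SAMtools 0.1.18.0, HTSeq 0.6.0 and build mm9, and the paper names edgeR with TMM scaling. The filter on low genes is not given in the sources used here, but every one of the 10245 genes reached at least 27.6 normalized counts in some library. A further 3 entries that name no gene held 75.7% to 82.6% of a column's sum and were left out. In 17 symbols a spreadsheet had written a date, and these were tested but not named. Whole reads could not be recovered, and the scaling removed the depth of each library (its aligned reads are stated in the study's methods) from the values, so no counting interval is given and precision rests on the 3 mice a group.

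Values were divided by 13.6393, 1 factor for all libraries, and log2(value + 0.25) was compared between groups with limma 3.58.1 (trend, no covariate, two-sided) in R 4.3.3, with Benjamini-Hochberg adjustment over all genes and a threshold of 0.05. The pseudocount makes fold changes of low genes appear smaller than they are. No gene was below the required mean of 0.25. Single values were compared by exact permutation tests in scipy 1.17.1 (Python 3.11.15). Exon lengths came from GENCODE vM21 and promoter sequences from RefSeq. The fit was tested on simulated data.

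Every gene of the rule is named, with the up to 3 smallest adjusted p-values and the largest rise and fall of each pathway list, the nearest 5 genes to Egr1 and 3 to Jun and to Myc, and Ptf1a. A gene that the rule also names is not reported here. Maf, Mkl1, Nab2, Hsp90aa1 and the markers quoted were added after their values were seen. The genes and lists were chosen with earlier results of these data known. Alternatives were other pseudocounts, filters, scalings, variance models, a sex covariate, a replicate block, a stricter threshold and leaving out each library.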

Additional observations from a re-analysis of the deposited data

How the results depend on the processing

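The 4 higher and 2 lower calls were recounted under each alternative. Higher calls ranged from 3 to 4 and lower calls from 2 to 2 when 1 library was left out, and all genes past the threshold from 2363 to 3601 (3475 with all libraries). With genes of a mean under 5 left out, 2 genes were higher, since Egr1, Atf3 and Junb were then not tested. This mean is taken after the division by the factor shared by all libraries, and is not in normalized counts. At the same total per library 7 were higher and 0 lower, Ier2 turned to 0.69, and 9716 of all genes passed, 98.7% of them higher against 50.4% as deposited; the median gene shifted to 1.48. At the same total without digestive enzymes 5250 genes passed (85.8% higher), with the median gene at 0.38, and both Junb (1.10, adjusted p = 0.0140) and Jund (0.57, adjusted p = 0.0111) passed by limma. At an adjusted p under 0.01, 1794 genes passed.

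The replicate block gave 5 higher, with Junb added (limma adjusted p = 0.0367), 2 lower and 3525 genes in all. The replicate numbers share only a number, as the deviations of same-numbered libraries correlated across genes at 0.04, 0.13 and 0.14. A count test on whole reads was not run, since at most 5.33% to 9.54% of a library's values lay on a common step. Of the single-gene and ratio results under the alternatives, 193 kept their direction and side of the threshold or stayed within the replicate spread, 6 newly passed, 5 no longer passed and 1 reversed.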
